A study of Mus musculus with 5 samples.

Results

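En2 and Cnpy1 are neighbouring genes that lie just outside the chromatin domain of Shh on mouse chromosome 5, and their contacts are described here in capture Hi-C maps of E10.5 limb buds. Capture Hi-C counts ligated pairs of DNA fragments after enrichment for a chosen stretch of the genome, so that more pairs between 2 places mean more frequent proximity. En2 (chr5:28165696-28172190, GRCm38) and Cnpy1 (chr5:28200819-28245788) were each taken as a viewpoint, made of the 5 kb bins that hold the gene and 1 bin on either side. The En2 viewpoint had 4 bins (28160001 to 28180000) and the Cnpy1 viewpoint 12 (28195001 to 28255000), together 16 of the 558 bins of the map. All bins 20 kb or more away were partners, 548 for En2 and 540 for Cnpy1, of which 538 and 530 were kept after bins with few contacts had been left out.

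The series held 5 mutant libraries, 1 per genotype, all homozygous. Mating gave the embryos of genotypes intraTAD2, intraTAD3 and intraTAD2-i4CTCF. Tetraploid aggregation, in which stem cells are combined with a tetraploid host, gave those of intraTAD2-2xBorCTCF and intraTAD2-1xBorCTCF. The last 3 are called i4CTCF, 2xBorCTCF and 1xBorCTCF below, and by their names carry the intraTAD2 allele too. The sources used here do not say what each allele changed, or how many embryos went into a library. The sixth map is named wild type, belongs to no sample and is the authors' value, so in each ratio to it the genotype and the origin of the library cannot be told apart. The manner of embryo production likewise differs between mutant maps and cannot be told apart from genotype. Recovered contacts numbered 1121373 (2xBorCTCF) to 2942790 (intraTAD2), and the maps hold no expression values against which the tissue label could be checked.

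En2 encodes the engrailed-family homeobox transcription factor best known from the midbrain and hindbrain border. Cnpy1 belongs to the canopy family, and in zebrafish its product takes part in FGF signalling at that same border. Shh codes for a secreted protein that patterns the limb bud, and its limb enhancer lies within Lmbr1 at the opposite end of its domain. Mnx1, on the other side of that domain, encodes a homeobox factor known from motor neurons and pancreas. Such domains are stretches of chromatin whose parts meet each other more often than their surroundings, and CTCF, a zinc finger protein, is often bound at their borders.

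Contact is given below as a distance-normalised value. Within a map, each balanced value was divided by the average over bin pairs equally far apart, so that 1 is the average at that distance. Genotypes could not be tested, as each had 1 library, and the 95% intervals cover counting error only. A contact was called higher or lower between maps when it differed at least 1.3-fold (0.38 on the log2 scale) and the interval of the log2 ratio excluded 0. As background, the same pair of windows was slid along the whole map and the share of positions that met this rule was counted. Those positions overlap and are not independent.

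Start sites of Cnpy1 and Mnx1 are shown first, for reference. Contacts are resolved to 5 kb bins only, and whether the starts play a part in them was not tested. RefSeq's promoter table for GRCm38.p6 held 2 start sites of Cnpy1, both on the minus strand, and 1 of Mnx1. It matched 1 of the 2 viewpoint genes. The 250 bases before each start are printed 5′ to 3′ on the minus strand, with CG dinucleotides in capitals. They were chosen because contacts differed between the bins that hold the 2 Cnpy1 starts. The inner Cnpy1 start lies in the bin at 28210001, and its upstream stretch is chr5:28210169-28210418. The outer start lies in the bin at 28245001, with upstream stretch chr5:28245789-28246038. The Mnx1 stretch is chr5:29478471-29478720, in the bin at 29475001.
Cnpy1 inner start: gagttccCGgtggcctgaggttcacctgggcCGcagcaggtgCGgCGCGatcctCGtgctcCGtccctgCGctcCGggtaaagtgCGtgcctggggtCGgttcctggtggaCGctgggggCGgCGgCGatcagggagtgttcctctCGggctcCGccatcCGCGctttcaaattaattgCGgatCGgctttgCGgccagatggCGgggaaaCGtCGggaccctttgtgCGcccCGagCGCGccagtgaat
Cnpy1 outer start: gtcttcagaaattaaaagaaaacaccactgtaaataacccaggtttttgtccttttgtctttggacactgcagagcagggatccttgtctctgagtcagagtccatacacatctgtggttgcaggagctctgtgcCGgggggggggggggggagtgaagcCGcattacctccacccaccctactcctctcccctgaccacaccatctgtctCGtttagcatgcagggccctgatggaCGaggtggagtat
Mnx1 start: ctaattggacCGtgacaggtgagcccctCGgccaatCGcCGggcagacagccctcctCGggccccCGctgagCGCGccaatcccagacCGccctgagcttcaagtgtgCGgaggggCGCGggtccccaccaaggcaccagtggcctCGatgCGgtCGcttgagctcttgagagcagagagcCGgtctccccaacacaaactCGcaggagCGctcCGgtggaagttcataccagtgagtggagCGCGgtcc

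The inner Cnpy1 stretch held 29 CG dinucleotides and 67.2% G or C. The outer stretch held 4 CG dinucleotides and 53.2% G or C, and the Mnx1 stretch 21 and 66.4%. Among 32851 such stretches the median was 6 CG dinucleotides, and the inner Cnpy1, outer Cnpy1 and Mnx1 stretches exceeded 93.2%, 37.8% and 83.7% of them. These counts describe the letters only.

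En2 met Mnx1 more than any other place in the map at 100 kb or more, across the whole Shh domain and a gap of 1302 kb between the genes. The domain, bounded by the insulation minima of the wild-type map, spanned 915 kb (28440001 to 29355000), and both genes lie outside it. En2 contact with Mnx1 was 12.2 in i4CTCF (95% counting interval 11.1 to 13.3, 527 contacts) and 10.7 in wild type (9.90 to 11.5, 718 contacts). It was 8.98 in 1xBorCTCF (8.30 to 9.65, 726 contacts) and 8.75 in intraTAD3 (8.08 to 9.42, 724 contacts). It was 8.06 in intraTAD2 (7.46 to 8.65, 789 contacts) and 5.54 in 2xBorCTCF (4.70 to 6.38, 178 contacts). The i4CTCF map was thus highest and 2xBorCTCF lowest, and intraTAD3 did not differ beyond counting error from its neighbours in the order, 1xBorCTCF and intraTAD2. In every map this contact ranked first among the 294 positions of the same pair of windows, whose median lay between 0.75 (wild type) and 0.93 (2xBorCTCF).

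**Figure D1:**
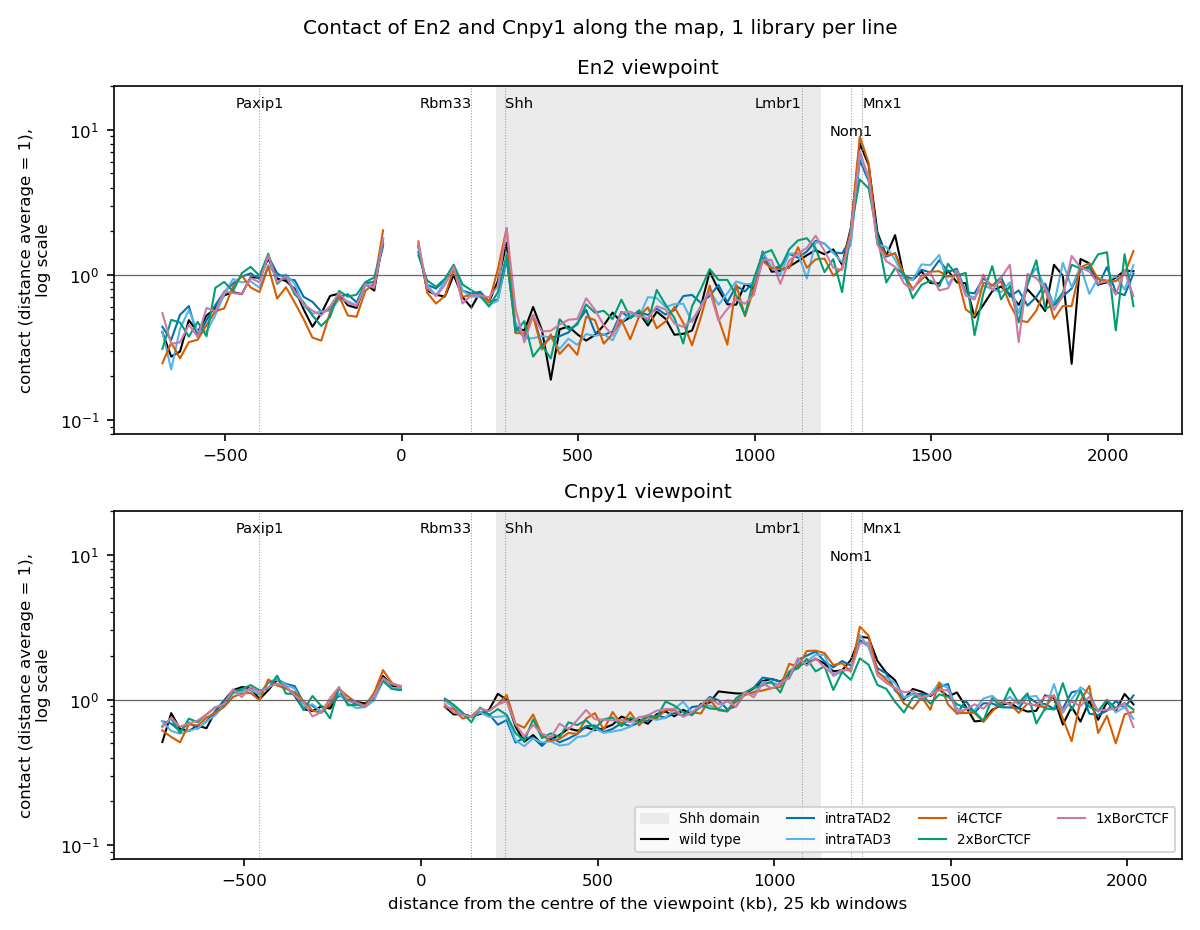
Distance-normalised contact (log axis, distance average 1) of En2 (top) and Cnpy1 (bottom) with 25 kb windows, against distance from the viewpoint's centre in kb; 1 line per map, the Shh domain shaded, partners under 20 kb left out. The En2 lines peak at Mnx1, where the window mean over the 6 maps is 6.93, and have a smaller peak at Shh; the Cnpy1 lines reach 2.61 in the same window.

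At the gene positions used, the En2 peak had its centre on Mnx1. This peak was used in choosing the genome build, so its place on the gene is not independent of that choice. Of the single 5 kb partner bins, the 2 that hold Mnx1 (29470001 and 29475001) had medians over the 6 maps of 10.3 and 9.91. The bin at 29460001 had a median of 3.86 and the bin at 29495001 one of 2.86, so contact was lower on both sides. On the En2 side, the bin at 28165001 had the highest median contact with Mnx1 (10.52, from 6.11 in 2xBorCTCF to 15.3 in i4CTCF). The other En2 bins had medians of 9.05, 9.69 and, for the bin at 28175001 on the side of Cnpy1, 6.51. Contact of En2 with Nom1, a nucleolar protein gene just before Mnx1, was between 1.78 (intraTAD2) and 2.31 (wild type) and was not called in any comparison.

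Set against wild type, En2 contact with Mnx1 was called lower in 2 maps. The log2 ratio was -0.95 in 2xBorCTCF (-1.19 to -0.71) and -0.41 in intraTAD2 (-0.56 to -0.26). The other 3 maps differed from wild type beyond counting error but by less than 1.3-fold, at -0.29 for intraTAD3 (-0.44 to -0.14), -0.25 for 1xBorCTCF (-0.41 to -0.10) and 0.19 for i4CTCF (0.02 to 0.36). Measured against the median of the other 5 maps in place of wild type, the intraTAD2 ratio was -0.16, which ends that call, and the 1xBorCTCF ratio turned to 0.04. The i4CTCF ratio was then 0.48 (0.31 to 0.65), which was called.

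Set against intraTAD2, whose allele the 3 CTCF genotypes share by name, En2 contact with Mnx1 was called higher in i4CTCF (log2 ratio 0.60, 0.43 to 0.77). It was called lower in 2xBorCTCF (-0.54, -0.78 to -0.30). In 1xBorCTCF the ratio was 0.16 (0.004 to 0.31). The direct ratio of 2xBorCTCF to 1xBorCTCF, both made by tetraploid aggregation, was -0.70 (-0.94 to -0.45) and was called. These comparisons share maps and are not independent of each other. The 2xBorCTCF map had the fewest contacts of all.

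Cnpy1 met Mnx1 as well, at a lower level. Its contact was 3.49 in i4CTCF, 3.22 in wild type and 3.04 in intraTAD3, then 2.78 in both 1xBorCTCF and intraTAD2, and 1.93 in 2xBorCTCF, from 206 to 807 contacts. Again i4CTCF was highest and 2xBorCTCF lowest, but among the other 5 maps no neighbours in the order differed beyond counting error. This contact ranked first of 301 positions in wild type, intraTAD3, i4CTCF and 1xBorCTCF, second in intraTAD2 and seventh in 2xBorCTCF. It was called lower in 2xBorCTCF against wild type (log2 ratio -0.74, -0.99 to -0.49), against intraTAD2 (-0.53, -0.77 to -0.29) and against 1xBorCTCF (-0.53, -0.78 to -0.28).

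Within Cnpy1 the contact with Mnx1 was concentrated near the inner start. The bins at 28205001 and 28210001, the latter holding the inner start and the CG-rich stretch printed above, had medians of 6.45 and 5.90. The bin at 28200001 had 4.02 and the bin at 28215001 had 3.24, so the pair stood above its neighbours on both sides. The bin of the outer start, at 28245001, had a median of 1.24. These bins were singled out because of their values, so the folds that follow describe the choice and carry no interval.

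In each map the 2 inner-start bins together were set against the 4 bins beside them, 2 on each side. For Mnx1 the 2 bins were 1.53-fold (2xBorCTCF) to 2.04-fold (i4CTCF) higher. The bin of the inner start alone gave 1.52-fold to 2.06-fold. Against the bin of the outer start the difference was 3.09-fold to 8.02-fold. For Shh as partner the 2 bins were 1.24-fold to 1.64-fold higher than those beside them, and the bin of the inner start alone 1.10-fold to 1.60-fold. For Nom1, beside Mnx1, the 2 bins were 0.84-fold to 1.31-fold. For Lmbr1 they were 0.78-fold to 0.92-fold and for Paxip1 0.94-fold to 1.00-fold, so the inner bins were not higher with every partner. The bin at 28205001 had 60.7% to 70.7% of the median coverage and that at 28210001 had 131% to 159%. Whether coverage plays a part was not tested.

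**Figure D2:**
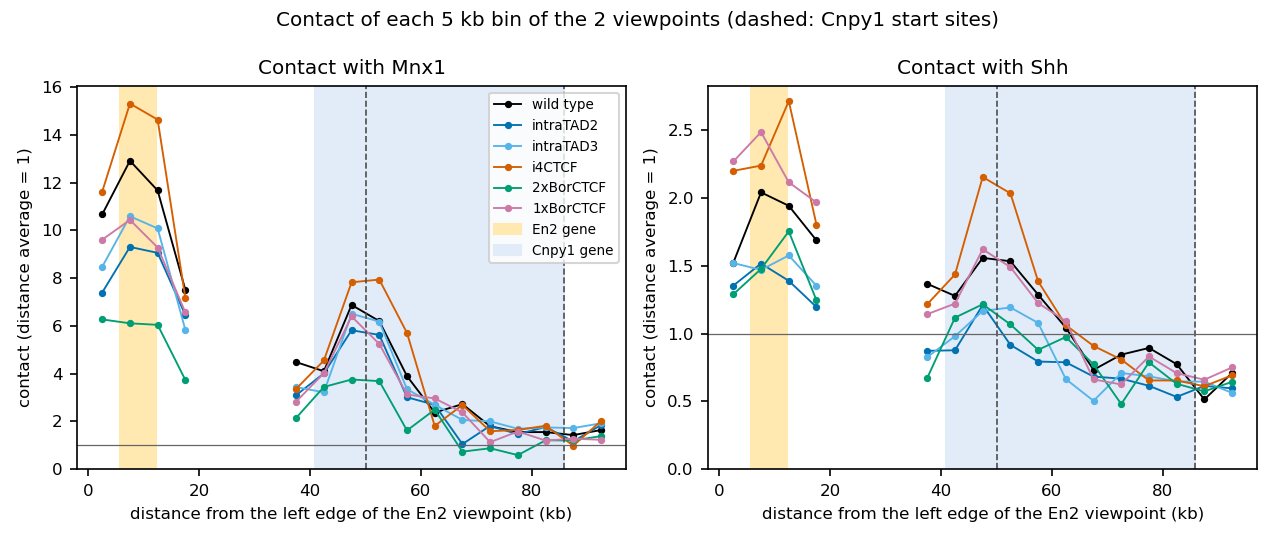
Contact (distance average 1, linear axis) of each 5 kb bin of the En2 and Cnpy1 viewpoints with Mnx1 (left) and Shh (right), against distance in kb from the left edge of the En2 viewpoint; 1 line per map, genes shaded, dashed lines at the Cnpy1 starts. In both panels the medians over the 6 maps are highest over En2. Within Cnpy1 they are highest in the bin of the inner start and the bin to its left, which is downstream on the minus strand. They are lowest in the bin of the outer start, though in single maps the lowest bin can lie elsewhere.

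The contact of the 2 viewpoints with Shh itself was lowest in the same 3 maps for both genes. For En2 it was 2.24 in i4CTCF, 2.21 in 1xBorCTCF, then 1.80 in wild type, and lower at 1.48 in intraTAD3, 1.44 in 2xBorCTCF and 1.36 in intraTAD2. For Cnpy1 it was 1.14 in i4CTCF, 1.05 in wild type, 1.00 in 1xBorCTCF, 0.82 in 2xBorCTCF, 0.81 in intraTAD3 and 0.76 in intraTAD2. In both orders intraTAD2, intraTAD3 and 2xBorCTCF were the 3 lowest, and neighbours among these 3 did not differ beyond counting error. En2 peaked on the Shh gene, at the bin at 28460001 (median 2.30, against 0.68 at 28440001 and 0.78 at 28475001). By median Cnpy1 was highest on the gene too, but barely, with 1.02 in that bin against 0.99 at 28430001, before the gene. The medians were 0.77 at 28440001 and 0.69 at 28475001. In wild type and 2xBorCTCF the bin at 28445001, off the gene, was higher (1.33 and 1.015) than that at 28460001 (1.29 and 0.81). It held 186 Cnpy1 contacts over the 6 maps, so Cnpy1 had no peak on Shh common to all maps. In the bin at 28445001, just before the gene, the medians were 0.97 for En2 and 0.87 for Cnpy1. Among positions of the same pair of windows, En2 to Shh ranked 9 (1xBorCTCF) to 67 (intraTAD2) of 496. Cnpy1 to Shh ranked 182 (i4CTCF) to 372 (intraTAD2) of 503.

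Against intraTAD2 the Cnpy1 contact with Shh was called higher in i4CTCF (log2 ratio 0.57, 0.42 to 0.72) and in 1xBorCTCF (0.39, 0.27 to 0.52). With coverage in place of balancing the latter was 0.31, which ends the call. The En2 ratios were 0.72 and 0.70. For 1xBorCTCF the En2 ratio was larger than that of Cnpy1 by 0.30 (0.10 to 0.50), and against wild type by 0.36 (0.13 to 0.59). For i4CTCF the difference between the 2 viewpoints was not beyond counting error in either comparison. Against wild type, Cnpy1 contact with Shh was called lower in intraTAD2 (-0.45, -0.59 to -0.31).

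**Figure D3:**
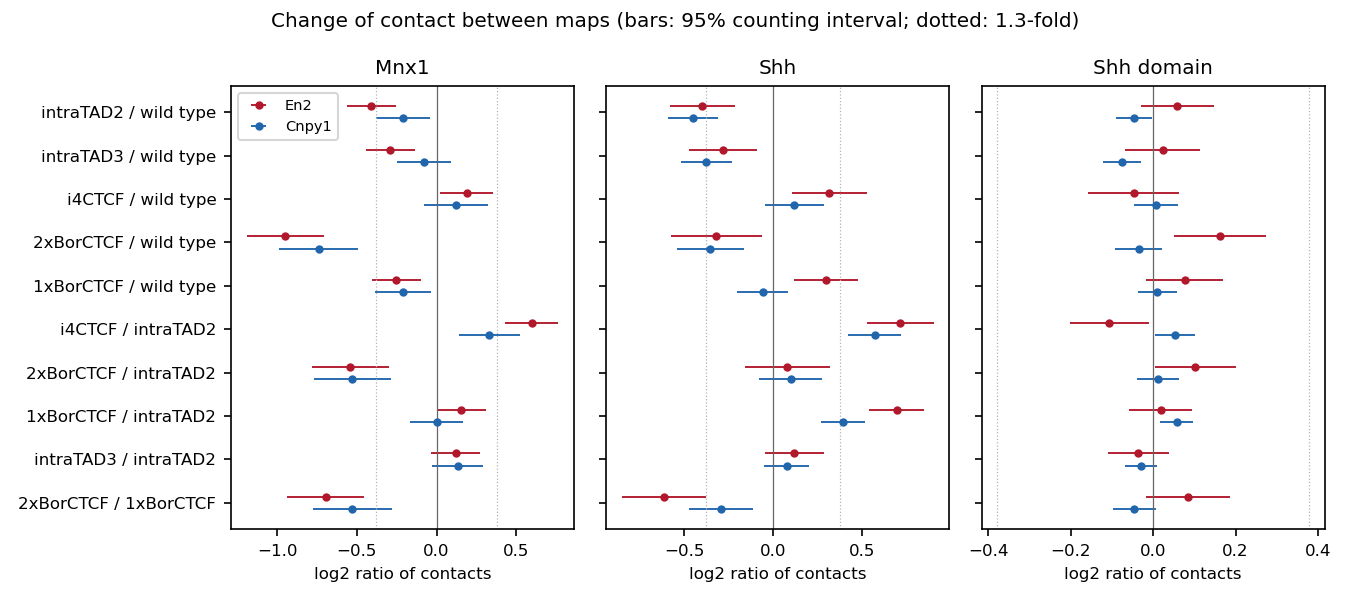
Log2 ratio of contact between maps for En2 (red) and Cnpy1 (blue) with Mnx1, Shh and the Shh domain; rows are the 10 comparisons, bars the 95% counting interval, dotted lines 1.3-fold, and the 3 panels have different x axes. For Mnx1 both viewpoints lie lowest in 2xBorCTCF against wild type, at -0.95 and -0.74, and for the whole domain all ratios lie within the dotted lines.

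The Shh domain as a whole met En2 less than expected from distance. En2 contact averaged over the 183 bins of the domain was 0.77 in 2xBorCTCF, 0.73 in 1xBorCTCF and 0.72 in intraTAD2, then 0.70 in intraTAD3, 0.69 in wild type and 0.67 in i4CTCF. Cnpy1 contact with the domain was 0.93 in 1xBorCTCF and i4CTCF, 0.92 in wild type, 0.90 in 2xBorCTCF, 0.89 in intraTAD2 and 0.88 in intraTAD3. All values were thus below 1, and Cnpy1 was closer to 1 than En2 in each map. By this mean, in which near and far bin pairs count alike, low En2 contact was not particular to the domain. Averaged in the same way over the own flank, from the map start to the domain, it was 0.72 (i4CTCF) to 0.81 (intraTAD2). By share of signal, given below, the En2 own flank was near or above its expectation from distance. In wild type it took 69.2% against 69.4%, and in intraTAD2 73.5% against 71.45%. The domain fell short by share as well, with 15.5% against 21.9% in wild type. For Cnpy1 the own flank had 0.95 (intraTAD3) to 0.97 (1xBorCTCF). In 0 of the 10 comparisons was the contact with the domain called, for either viewpoint.

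Small differences beyond counting error were measured nevertheless. En2 contact with the domain was higher in 2xBorCTCF than in wild type (log2 ratio 0.16, 0.05 to 0.27) and than in intraTAD2 (0.10, 0.005 to 0.20). It was lower in i4CTCF than in intraTAD2 (-0.11, -0.20 to -0.01). With the Shh window taken out of the domain, a comparison added after the data had been seen, that ratio was -0.17 (-0.27 to -0.07). For Cnpy1 the ratio to wild type was -0.08 in intraTAD3 (-0.12 to -0.03) and -0.05 in intraTAD2 (-0.09 to -0.002). No neighbours in the order of the 6 maps differed beyond counting error for either gene.

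The low average hid a slope along the domain. Divided into 5 parts from the Shh end, the domain met En2 at 0.56 to 0.74 in the first, 0.38 to 0.54 in the second, 0.47 to 0.62 in the third, 0.57 to 0.81 in the fourth and 1.21 to 1.45 in the fifth. For Cnpy1 the ranges over the 6 maps were 0.57 to 0.72, 0.57 to 0.73, 0.74 to 0.82, 0.93 to 1.03 and 1.46 to 1.60. Both genes therefore met the Lmbr1 end of the domain above the distance average and the rest of it mostly below.

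The first of these parts, which holds Shh, differed between maps for both genes. Against intraTAD2 it was higher in i4CTCF for En2 (log2 ratio 0.39, 0.21 to 0.58) and for Cnpy1 (0.34, 0.23 to 0.45). It was also higher in 1xBorCTCF, by 0.41 for En2 (0.26 to 0.55) and 0.29 for Cnpy1 (0.20 to 0.38). In the second part, which holds no bins of Shh, En2 contact was higher in 2xBorCTCF than in wild type (0.33, 0.12 to 0.53), as was that in 1xBorCTCF (0.27, 0.09 to 0.44). There intraTAD3 was lower than intraTAD2 for En2 (-0.26, -0.41 to -0.11) and for Cnpy1 (-0.10, -0.18 to -0.03). Differences of En2 contact beyond counting error were not confined to these parts. The third was higher than in wild type in intraTAD3 (0.38, 0.20 to 0.56) and intraTAD2 (0.28, 0.10 to 0.45). The fourth was lower in i4CTCF than in intraTAD2 (-0.41, -0.68 to -0.13). The fifth was higher in 2xBorCTCF than in wild type (0.27, 0.07 to 0.46).

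**Figure D4:**
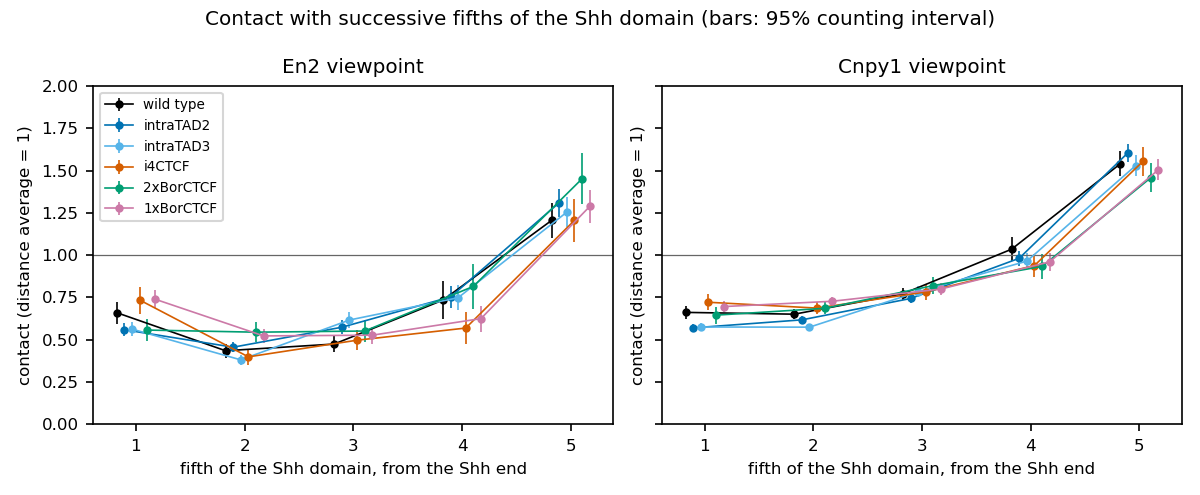
Contact (distance average 1) of En2 (left) and Cnpy1 (right) with 5 successive parts of the Shh domain from the Shh end to the Lmbr1 end; points are maps, bars the 95% counting interval. All 6 maps reach 1.21 or more for En2 and 1.46 or more for Cnpy1 in the last part.

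Of the signal that each viewpoint had with partners 20 kb or more away, most stayed on its own side of the Shh domain. For En2 the own flank took 73.8% in intraTAD3, 73.5% in intraTAD2, 73.2% in 2xBorCTCF, 71.1% in i4CTCF, 70.1% in 1xBorCTCF and 69.2% in wild type. The domain took 14.3% (intraTAD3) to 16.6% (1xBorCTCF), and the stretch beyond it, which includes Mnx1, took 10.8% (2xBorCTCF) to 15.2% (wild type). The distance curve alone would give the stretch beyond the domain 8.78% in wild type and 7.92% in 2xBorCTCF, and the domain 21.9% and 21.5%. En2 thus had more of its signal beyond the domain than distance gives, and less within it. For Cnpy1 the own flank took 63.8% (wild type) to 67.7% (intraTAD3), the domain 20.6% to 23.1% and the stretch beyond it 10.9% to 13.6%. From distance Cnpy1 would have 10.3% beyond the domain in wild type and 9.43% in 2xBorCTCF, and 26.9% and 26.8% within it. Cnpy1 thus shared the pattern of En2. Distance alone would already put most of the signal in the own flank. It would give En2 69.4% there in wild type and 71.7% in intraTAD3, and Cnpy1 62.7% and 64.9%. These shares follow each map's own fall of contact with distance, which differs between libraries.

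The other listed genes of the map made a list of 12 with Shh and Mnx1. For En2 the contacts called were with Shh and Mnx1. Under alternative settings Rnf32 and Dnajb6 were also called, at 0.51 for Rnf32 in 2xBorCTCF against wild type and -0.89 for Dnajb6 in i4CTCF against intraTAD2 with gene bins only, and at 0.40 for Dnajb6 in intraTAD2 against wild type with the stricter bin filter. Against wild type, 2 of 12 were lower in intraTAD2 (background 1.81%) and 1 lower in 2xBorCTCF (3.5%). None of the 12 was called in intraTAD3 (4.34%), i4CTCF (4.6%) or 1xBorCTCF (5.83%). Against intraTAD2, 2 were higher in i4CTCF (1.96%), 1 was higher in 1xBorCTCF (2.58%), 1 was lower in 2xBorCTCF (2.06%) and none was called in intraTAD3 (2.19%). In 2xBorCTCF against 1xBorCTCF 2 were lower (2.04%). The background is the share of slid positions called in the same direction, or in either where none was called.

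For Cnpy1 the called genes were again Shh and Mnx1, while with gene bins only Nom1 was also called, at -0.49 in 2xBorCTCF against wild type. Against wild type, 1 of 12 was lower in intraTAD2 (Shh, background 1.38%), 1 lower in 2xBorCTCF (Mnx1, 3.03%) and 0 called in intraTAD3 (2.06%), i4CTCF (2.88%) and 1xBorCTCF (2.86%). Against intraTAD2, 1 was higher in i4CTCF (Shh, 1.1%), 1 lower in 2xBorCTCF (Mnx1, 2.15%), 1 higher in 1xBorCTCF (Shh, 1.96%) and 0 called in intraTAD3 (0.688%). In 2xBorCTCF against 1xBorCTCF 1 was lower (Mnx1, 0.817%). The median log2 ratio over the 12 genes lay between -0.10 (i4CTCF against intraTAD2) and 0.12 (2xBorCTCF against wild type) for En2, and between -0.07 and -0.002 for Cnpy1.

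**Figure D5:**
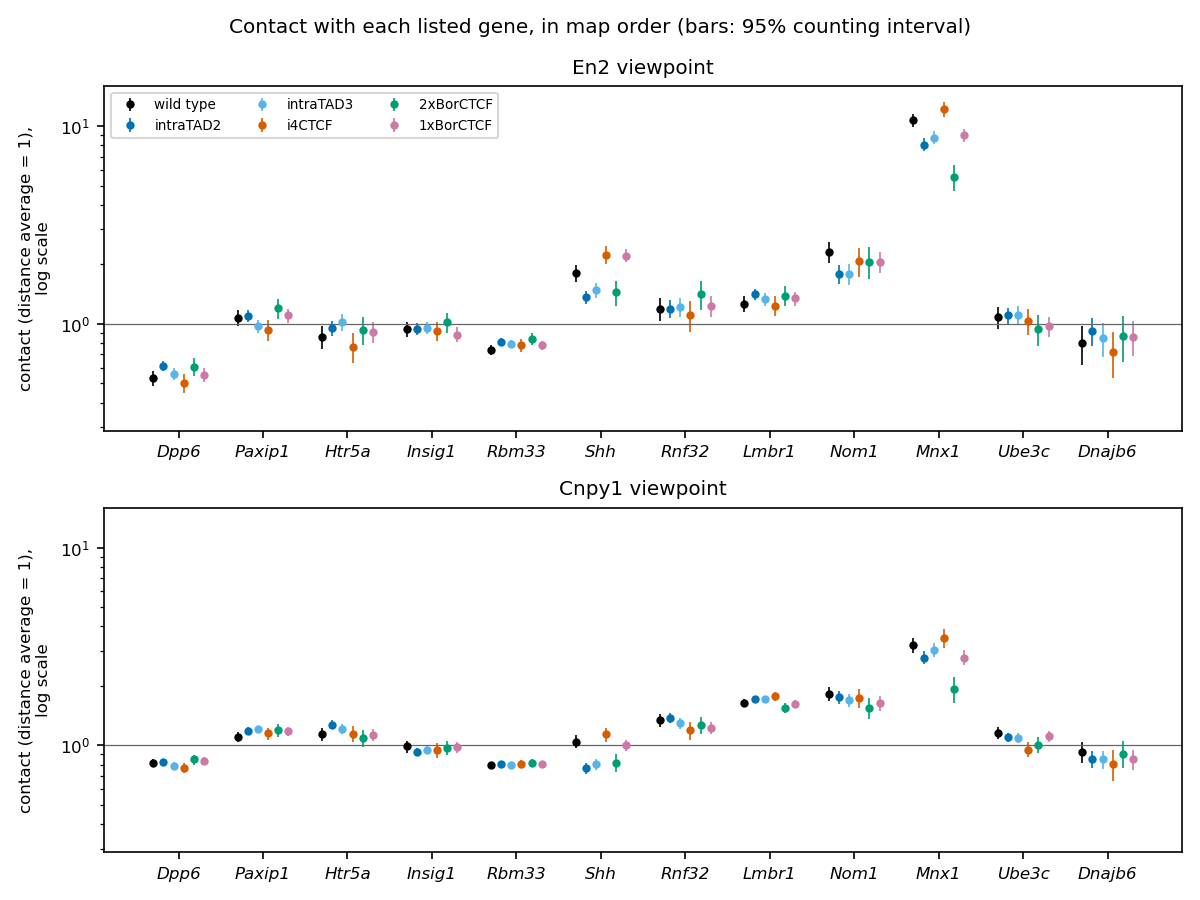
Contact (log axis, distance average 1) of En2 (top) and Cnpy1 (bottom) with each of the 12 listed genes in map order; points are the 6 maps and bars the 95% counting interval. Mnx1 stands highest in both panels, from 5.54 to 12.2 for En2 and from 1.93 to 3.49 for Cnpy1, and maps differ most for Mnx1 and Shh.

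En2 and Cnpy1 differed in their contact with some listed genes. The direction was the same in every map for Mnx1, Shh, Nom1, Dpp6, Htr5a and Lmbr1. It changed between maps for Paxip1, Insig1, Rbm33, Rnf32, Ube3c and Dnajb6. With Nom1 the En2 contact was higher by a median of 1.23-fold, beyond counting error in 3 maps. En2 had the higher contact with Mnx1 (median 3.06-fold) and with Shh (1.81-fold), beyond counting error in 6 of 6 maps each. Cnpy1 had the higher contact with Dpp6, a potassium channel subunit gene at the far end of the own flank, with a median En2 to Cnpy1 ratio of 0.68 and 6 of 6 maps beyond counting error. The Dpp6 window is cut by the start of the map. With Htr5a, a serotonin receptor gene, the ratio was 0.78, and with Lmbr1 0.80, each beyond counting error in 5 of 6 maps. For Insig1, a sterol-regulated gene near En2, the ratio was 0.99, with 0 maps beyond counting error. Cnpy1 contact with Lmbr1 was between 1.55 (2xBorCTCF) and 1.77 (i4CTCF), and 3 of the 33 bins of that window had been left out.

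Of the remaining listed genes, En2 met Rbm33 and Dnajb6 below the distance average in every map and Rnf32 above it. With Paxip1, Insig1 and Ube3c its contact lay on both sides of 1. En2 contact was 0.93 to 1.20 with Paxip1, whose product binds chromatin-modifying complexes, and 0.88 to 1.02 with Insig1. It was 0.74 to 0.84 with Rbm33, an RNA-binding protein gene between Cnpy1 and Shh, and 1.10 to 1.41 with the RING finger gene Rnf32. Past Mnx1 it was 0.94 to 1.11 with the ubiquitin ligase gene Ube3c and 0.72 to 0.92 with the chaperone gene Dnajb6. Cnpy1 contact with these 6 genes spanned 0.79 (Rbm33) to 1.38 (Rnf32).

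Averaged over the Cnpy1 viewpoint, En2 and Cnpy1 met each other slightly above the distance average in every map. Their contact was 1.24 in 1xBorCTCF, 1.23 in i4CTCF, 1.21 in intraTAD3, 1.20 in wild type and 1.16 in intraTAD2 and 2xBorCTCF, from 2575 to 7957 contacts. No neighbours in that order differed beyond counting error, and the ratios furthest from 0 were -0.09 (2xBorCTCF against 1xBorCTCF, -0.17 to -0.01) and 0.09 (1xBorCTCF against intraTAD2, 0.03 to 0.15). With partners 50 kb or more away these were 0.0350 and 0.00421. Among 537 positions of the same windows this contact ranked between 61 (i4CTCF) and 97 (2xBorCTCF).

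In 25 kb windows at 100 kb or more the highest mean contacts of En2 were 6.93 at 29455001 to 29480000, which holds Mnx1, and 4.89 in the next window up to 29505000. Then came 1.93 in the window of Nom1 (29430001), 1.77 at 29505001 and 1.65 in the window of Shh (28455001). For Cnpy1 they were 2.61 and 2.38 in the same 2 windows around Mnx1, then 1.97, 1.90 and 1.85 in 3 windows of Lmbr1 from 29305001 to 29380000. Lmbr1 thus held 3 of the top 5 windows of Cnpy1 and none of those of En2.

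Calls over all 25 kb windows were mostly near the background, which is the share of windows called at all viewpoint positions of the map. For En2 against wild type, 13 of 108 windows were called in 2xBorCTCF (background 7.82%), 12 in intraTAD2 (5.95%) and 9 in intraTAD3 (6.32%). Those called in 1xBorCTCF numbered 8 (7.15%), against 7 in i4CTCF (6.22%). Against intraTAD2, 13 were called in i4CTCF (5.93%), 8 both in 1xBorCTCF (7.64%) and 2xBorCTCF (7.45%), and 5 for intraTAD3 (4.39%). The En2 share of 12.04% in i4CTCF against intraTAD2 was furthest above its background. In 2xBorCTCF against 1xBorCTCF 7 were called (5.57%). For Cnpy1 against wild type, 8 of 107 were called in 2xBorCTCF (8.0%), 6 in intraTAD2 (4.02%), 6 in i4CTCF (5.36%), 3 in intraTAD3 (4.72%) and 2 in 1xBorCTCF (6.16%). Against intraTAD2, 9 were called in i4CTCF (4.77%), 6 for 2xBorCTCF (6.96%), 5 for 1xBorCTCF (6.1%) and 3 for intraTAD3 (2.46%). In 2xBorCTCF against 1xBorCTCF 4 were called (4.11%).

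Many of the windows with the extreme ratios held few contacts. Against wild type, the highest called En2 ratio was at the window of Tyms (30055001), which encodes thymidylate synthase, in 1xBorCTCF (2.47), 2xBorCTCF (2.27), intraTAD3 (1.75) and intraTAD2 (1.72). The wild-type value there was 0.24 from 7 contacts, below the other 5 maps (0.61 to 1.35). The lowest called ratio was at the window of Il6 (30005001), an interleukin gene, in intraTAD2 (-0.93), intraTAD3 (-0.91), i4CTCF (-1.24) and 1xBorCTCF (-1.03). There wild type had 1.17 from 30 contacts, above the other 5 maps (0.50 to 0.63). The remaining extremes lay inside the Shh domain, at 28930001 in i4CTCF (0.64) and at 28530001 in 2xBorCTCF (-1.13).

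Between mutant maps the highest En2 ratio of i4CTCF to intraTAD2 was at the window of Shh (0.72, 340 contacts in i4CTCF), and the lowest at 28980001 (-1.15). For 2xBorCTCF the extremes against intraTAD2 were also inside the domain, at 28730001 (0.55) and 28955001 (-1.08). For 1xBorCTCF they were beyond it, at 29880001 (0.73) and 29905001 (-1.18). For intraTAD3 they were at 28855001 (0.41) and in Lmbr1 at 29305001 (-0.62). In 2xBorCTCF against 1xBorCTCF they were in Dpp6 at 27705001 (0.47) and at 28530001 (-0.94). Of these windows that of Shh had the most contacts.

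For Cnpy1, several of the lowest ratios were beside Shh or Mnx1. Against wild type the lowest was the window just before Shh (28430001) in intraTAD2 (-0.71, -0.99 to -0.42) and intraTAD3 (-0.53, -0.82 to -0.23). In 2xBorCTCF it was the window just after Mnx1 (29480001), at -0.62 (-0.84 to -0.39), and this window was also the lowest against 1xBorCTCF (-0.51, -0.73 to -0.29). In i4CTCF it was the window of Tyms (-0.78) and in 1xBorCTCF that of Dnajb6 at 29730001 (-0.44). The highest ratios to wild type were near the end of the map at 30080001 in intraTAD2 (0.72) and intraTAD3 (0.78), at Tyms (30030001) in 2xBorCTCF (0.95), and in the domain in i4CTCF (28530001, 0.47) and 1xBorCTCF (28680001, 0.40).

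Against intraTAD2, the window just before Shh was the highest Cnpy1 ratio of 1xBorCTCF (0.46, 0.20 to 0.73). In i4CTCF the extremes were at 30105001 (0.63) and Tyms (-1.12), and in 2xBorCTCF at 29880001 (0.44) and 29380001 (-0.52). The window of Selenoi (30230001) was lowest in 1xBorCTCF (-0.72) and intraTAD3 (-0.53), and that of Il6 highest in intraTAD3 (0.56). In 2xBorCTCF against 1xBorCTCF the highest was at 27905001 (0.47).

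Along the map, the log2 contact profile of En2 was most like that of Cnpy1, with a Pearson r of 0.82 (median of the 6 maps, 0.72 to 0.89, 99 windows). Rbm33 (0.74) and Insig1 (0.66) came next. For Cnpy1 the most alike was Rbm33, with r of 0.84 (0.75 to 0.89, 93 windows), then En2 and Insig1 (0.66). Windows of 1 map share its library and depth, and neighbouring viewpoints share surroundings, so these are descriptions. The profile of Rnf32, in the Shh domain, was least alike, at -0.39 for En2 and -0.45 for Cnpy1.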

How the data were processed

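Capture Hi-C of E10.5 mouse limb buds was analysed in 6 maps: 5 mutant libraries, 1 per genotype, and 1 column of values of no sample, the authors' wild-type map. Per the labels' protocols, cells were cross-linked with formaldehyde and digested with DpnII, and ligated DNA was enriched with SureSelect capture before paired-end sequencing. The genome builds mm9 and mm10 stand in the submitters' processing notes beside Bowtie2 (2.2.6), with no role for either. Per the file names, reads had mapping quality 30 or more and Knight-Ruiz balancing was applied. The deposited values, which the authors made for each map separately, are a balanced contact signal between bins of 5 kb. The sources used here give neither probe design nor duplicate removal.

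Gene positions are RefSeq's for GRCm38.p6. The files name no build. At these positions En2 to Mnx1 contact ranked first of 294 positions of the same pair of windows in every map. That peak was used in choosing the build, so the position of the contact on Mnx1 is not independent of this choice. Balanced values equal whole contacts times a factor of each bin, and both were recovered with 100% of defined values whole within 0.01. Recovery and intervals were tested on simulated data. Undefined values (0 to 106 pairs a map) were not used. Of 558 bins 10 were dropped everywhere, because in at least 1 map they had contacts with fewer than 25% of the median count of partner bins. Since only pairs usable in every map were compared, the means rest on the same pairs. Intervals are 95% weighted Poisson intervals of the recovered contacts. PCR copies are not told apart, so they hold counting error alone, and variation between embryos is not in them. Python 3.11.15, numpy 2.4.6 and scipy 1.17.1 were used.

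The Shh domain was bounded by minima of the wild-type insulation over 100 kb. The text names all 12 listed genes, the 5 windows of 25 kb with the highest mean at 100 kb or more, the windows with the largest called rise and fall (60 contacts or more over the 6 maps), and the 3 genes with the most similar profile. The viewpoints, lists and rules were chosen with earlier results of these data known. Alternatives changed the flank, the balancing, the expected value, the bin filter, the nearest partner, the comparison map, the window and the fold.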

Additional observations from a re-analysis of the deposited data

How the results depend on the processing

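No paired analysis was possible because each genotype had 1 library, and for the same reason no replicate could be left out. Of 15 called contacts with listed genes, 15 were also called with gene bins only, with smoothed expected values, with the stricter bin filter and with partners 50 kb or more away. With coverage in place of balancing 13 were, and with the median of the other 5 maps as the comparison 12. Contacts that lost the call by coverage were En2 to Shh in intraTAD2 against wild type (-0.36) and Cnpy1 to Shh in 1xBorCTCF against intraTAD2 (0.31). With the median map those lost were En2 to Shh in 2xBorCTCF against 1xBorCTCF (-0.32), En2 to Mnx1 in intraTAD2 against wild type (-0.16) and Cnpy1 to Shh in 1xBorCTCF against intraTAD2 (0.29). Over all alternatives, the En2 to Mnx1 ratio was -1.01 to -0.70 for 2xBorCTCF, set against wild type at first. For i4CTCF, set against intraTAD2 at first, it was 0.48 to 0.68. The ends -0.70 and 0.48 are those with the median map, which replaces the comparison map named.

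The number of listed genes called against wild type, 3 for En2 and 2 for Cnpy1 in all, was 5 for each with gene bins only, and 5 for En2 against the median of the other maps. Windows called, 49 and 41 for En2 (against wild type and between mutant maps) and 25 and 27 for Cnpy1, were 24, 24, 8 and 7 with windows of 50 kb, which are fewer, and 32, 22, 7 and 4 at 1.5-fold. Against the median of the other maps they were 18 for En2 and 10 for Cnpy1.

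With the median map as the comparison, Cnpy1 contact with the domain in intraTAD3, elsewhere set against intraTAD2, was -0.0754. Among listed genes, signs turned in 106 of 1440 ratios over all alternatives. In 103 of these the interval held 0 at first. Of the 106, 49 came with the median map, which replaces the comparison map named, so they are ratios to another map. With it, En2 to Shh in 2xBorCTCF, elsewhere set against intraTAD2, was -0.32. Cnpy1 to Shh in 1xBorCTCF, elsewhere set against wild type, was 0.29. Ratios that had been beyond counting error turned, with the median map, for En2 to Dpp6 in intraTAD3 against intraTAD2 (0.0166), En2 to Mnx1 in 1xBorCTCF against wild type (0.0371) and Cnpy1 to Htr5a in i4CTCF against intraTAD2 (0.00704). The contact between En2 and Cnpy1, with partners 50 kb or more away, was 0.0480 in intraTAD2, -0.0834 in i4CTCF and 0.0871 in 2xBorCTCF against wild type. Against intraTAD2 it was -0.13 in i4CTCF, 0.00421 in 1xBorCTCF and -0.00416 in intraTAD3, and 0.0350 in 2xBorCTCF against 1xBorCTCF. Signs turned in 7 of 10 of these comparisons, 2 of which had been beyond counting error. With gene bins only it was 0.16 in i4CTCF against intraTAD2, and with coverage 0.0151 in 1xBorCTCF against intraTAD2. The cause was not tested.

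The share in the own flank of En2, with recovered contacts in place of balanced values, was 70.3% in wild type, 74.2% in intraTAD2, 74.4% in intraTAD3 and 72.1% in i4CTCF. With partners 50 kb or more away, which removes near contacts, it was 57.3%, 63.7%, 62.9%, 57.3%, 63.0% and 58.6% for En2 and 57.4%, 60.8%, 60.9%, 58.8%, 60.1% and 57.7% for Cnpy1, from wild type to 1xBorCTCF. Contact of single Cnpy1 bins with Mnx1 rests on as few as 4 contacts in a map, and that of En2 with the window of Tyms on 7 in wild type.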
